A study of Homo sapiens with 5 samples.

Results

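The miR-29 family was measured with 3 of the 734 miRNA probes of the panel, those named hsa-miR-29a, hsa-miR-29b and hsa-miR-29c, which were taken by exact name. The cells were Caco2, an established human line from a colorectal adenocarcinoma whose cells polarise as intestinal epithelium does. One group carried a non-target shRNA (NT, n = 2, replicates 1 and 3) and the other one that targets PLEKHA7, which sits at adherens junctions between epithelial cells (shPLEKHA7, n = 3, replicates 1, 2 and 3). All 5 cultures were infected and selected, and the labels name a single targeting shRNA and no clone, age or time point. Infections are described as independent sets. The titles set the groups, and for shPLEKHA7 replicates 2 and 3 the source field carries another PLEKHA number. miRNAs were read on the NanoString nCounter system, which counts fluorescent barcodes bound to each target without amplification.

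Mature miRNAs guide Argonaute proteins to messenger RNAs by pairing of the seed, bases 2 to 8 from the 5′ end. The miR-29 family is known for repressing extracellular matrix genes such as collagens and elastin, the DNA methyltransferases that set new methylation marks, and the survival factor MCL1. It is lost in fibrotic tissue and in several cancers, and MYC is a known repressor of its genes. miR-29b differs from its relatives by a terminal motif known to direct it to the nucleus.

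The probes' target sequences matched RefSeq mature miRNAs letter for letter. They are shown with the seed in capitals, because the whole family shares it and the probes must separate what lies outside it.
hsa-miR-29a: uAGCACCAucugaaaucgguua
hsa-miR-29c: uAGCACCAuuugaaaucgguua
hsa-miR-29b: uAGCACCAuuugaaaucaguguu
Of the 734 miRNA probes, these 3 alone held the seed AGCACCA at bases 2 to 8. Counting from 1 at the 5′ end, miR-29a and miR-29c differed by a single substitution, C10U, and were identical at 21 of 22 positions. miR-29c and miR-29b were identical over the first 17 bases and differed by G18A, U21G and A22U, with 1 extra base at the end of miR-29b. How much each probe also counts its relatives was not tested.

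The family comes from 4 hairpins in 2 pairs, shown from RefSeq (GRCh38.p14) with the mature strand in capitals, because miR-29b is made from both pairs and its probe cannot say which.
MIR29A: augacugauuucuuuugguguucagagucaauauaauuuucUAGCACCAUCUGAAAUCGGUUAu
MIR29B1: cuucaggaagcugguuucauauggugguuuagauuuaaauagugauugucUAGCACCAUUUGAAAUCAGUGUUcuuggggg
MIR29B2: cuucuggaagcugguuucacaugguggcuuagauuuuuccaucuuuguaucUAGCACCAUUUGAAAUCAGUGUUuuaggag
MIR29C: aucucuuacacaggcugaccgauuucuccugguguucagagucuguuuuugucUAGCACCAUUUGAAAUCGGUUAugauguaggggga
MIR29A lies at chr7:130876747-130876810 and MIR29B1 at chr7:130877459-130877539, both on the minus strand and 648 bases apart. MIR29C lies at chr1:207801852-207801939 and MIR29B2 at chr1:207802443-207802523, also on the minus strand, 503 bases apart and inside the span of the long noncoding RNA gene MIR29B2CHG. RefSeq listed no other gene over MIR29A or MIR29B1. The opposite, 5′ arm of each hairpin had 0 probes on the panel.

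Each lane held between 32138 and 58298 miRNA counts. The limit of detection, the mean plus 2 SD of the 8 negative-control probes in the same lane, ran from 11 to 24.45 counts. The 8 intestinal epithelial markers, miR-192, miR-194, miR-215 and the miR-200 family, were all tested, at a summed 2214 to 2226 normalized counts in NT and 1959 to 2182 in shPLEKHA7 lanes. Their members went both ways, with 5 of 8 log2 fold changes below 0 and a median of -0.07. miR-215 was called higher (edgeR adjusted p = 0.048), but its raw NT counts of 11 and 17 lay below their limits of 13.4 and 20.6. It exceeded the limit in the 3 shPLEKHA7 lanes only. It was thus tested only through the group where it was high, and no fold is given for it. Blood cell markers (3 of 6 tested), summed over all 6, came to 124 to 127 in NT and 118 to 143 in shPLEKHA7 lanes. Stromal and endothelial markers (3 of 6 tested), summed in the same way, came to 106 to 114 and 104 to 128. The untested members in these sums exceeded the limit in 0 lanes. For both lists the group sums overlapped, whereas the epithelial NT sums lay above the shPLEKHA7 sums, and no sum was tested. In the blood list and in the stromal list alike, 1 of the 3 tested members had a log2 fold change below 0, and 0 were called. The numbers that end the deposited column names put both NT lanes ahead of the shPLEKHA7 lanes, and that order and the shRNA cannot be told apart. PLEKHA7 itself has no probe, so its knockdown was not analysed here.

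miR-29a was the most counted member and was lower in shPLEKHA7 cells. Its normalized counts, raw counts scaled by TMM (trimmed mean of M-values) to a common lane size, were 288 and 231 in NT replicates 1 and 3. They were 147, 169 and 172 in shPLEKHA7 replicates 1, 2 and 3. Both NT lanes stood above all 3 shPLEKHA7 lanes, a pattern that 22.1% of the 204 tested probes had. The means were 259 ± 39.9 (SD, n = 2) and 162 ± 13.6 (SD, n = 3), a log2 fold change of -0.67 (SE 0.15) in the edgeR quasi-likelihood test (adjusted p = 0.0317). On the linear scale shPLEKHA7 cells held 62.8% of the NT level, with a 95% interval from 49.6% to 79.7%. The same test called 13 of 204 probes (6.37%), 8 lower (3.92%) and 5 higher (2.45%), and miR-29a ranked 12 by size of fall.

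The raw counts behind these values were 227 and 246 in NT and 161, 123 and 227 in shPLEKHA7 lanes. NT replicate 1 and shPLEKHA7 replicate 3 thus gave the same raw count of 227, from total miRNA counts of 34942 and 58298, and before scaling the groups touch. Counting error alone gives that count an exact 95% Poisson interval from 198 to 259, and it covers no other error. Each raw count was 6.58 to 16.9 times its lane's limit, so miR-29a was read clear of background everywhere. As a share of all miRNA counts miR-29a took 0.65% and 0.488% in NT and 0.336%, 0.383% and 0.389% in shPLEKHA7 lanes. Here the groups are apart again, but how many other probes lie apart as shares was not counted.

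**Figure D1:**
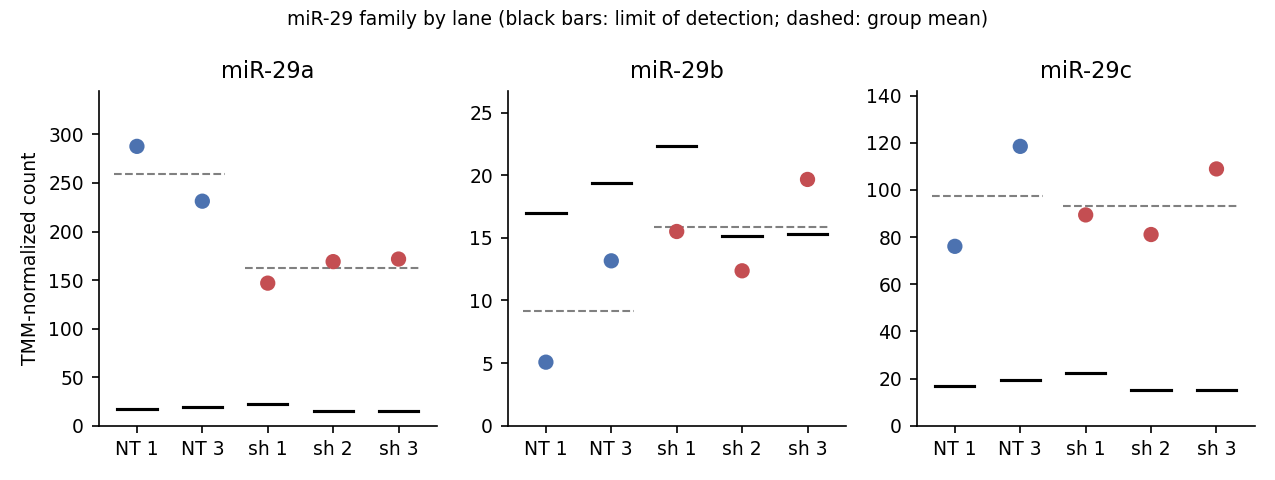
TMM-normalized counts (linear axes, one per probe) of miR-29a, miR-29b and miR-29c in the 5 lanes, NT in blue and shPLEKHA7 (sh) in red, with dashed group means and black bars at each lane's limit of detection. miR-29a sits at 231 and above in NT and at 172 and below in shPLEKHA7 lanes, miR-29c overlaps between groups, and miR-29b passes its limit in 1 lane.

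The call for miR-29a rested on both NT lanes, which was not particular to it. With either NT lane left out, nearly all calls of the panel were lost. Leaving out NT replicate 1 gave a log2 fold change of -0.51 (adjusted p = 0.197). Leaving out NT replicate 3 gave -0.78 (adjusted p = 0.0627). In both fits the spread of the remaining NT sample was taken from the shPLEKHA7 lanes. The scaling of the deposited normalized table, which equalises the 5 housekeeping mRNAs, gave a fall of similar size with a wider error (log2 -0.72, SE 0.32, adjusted p = 0.187). The deposited values of miR-29a were 278 and 267 in NT and 151, 140 and 204 in shPLEKHA7 lanes. They do not overlap, but how many other probes lie apart in these values was not counted. Scaling to the positive-control spike-ins, a fixed input of artificial RNA targets, gave log2 -1.01 (SE 0.27, adjusted p = 0.00459). That scaling called 29 probes lower in all and put the median of all tested probes at -0.27. Spike-in totals were 7686 and 10656 in NT and 14017, 10670 and 14239 in shPLEKHA7 lanes, so each shPLEKHA7 total exceeded both NT totals, replicate 2 only just, and their part in the result was not tested.

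miR-29c, which differs from miR-29a by the single base given above, showed no such split. Its normalized counts were 76.0 and 118 in NT and 89.4, 81.1 and 109 in shPLEKHA7 lanes. The NT lanes were the lowest and the highest of the 5, with all shPLEKHA7 lanes between them. The means were 97.2 ± 30.0 (SD, n = 2) and 93.1 ± 14.3 (SD, n = 3), a log2 fold change of -0.07 (SE 0.22) that edgeR did not call (adjusted p = 0.89). The 95% interval, 68.1% to 134% of the NT level, leaves room for a fall or a rise. The sign itself was not fixed: the value was 0.35 when NT replicate 3 was left out and -0.33 when NT replicate 1 was. Raw counts were 60 and 126 in NT and 98, 59 and 144 in shPLEKHA7 lanes, 4.01 to 7.12 times the limit.

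miR-29b was at or near background. It had raw counts of 4 and 14 in NT and 17, 9 and 26 in shPLEKHA7 lanes, against limits of 13.4, 20.6, 24.5, 11.0 and 20.2 in the same order. Only shPLEKHA7 replicate 3 exceeded its limit, and single negative-control probes reached 10 to 24 counts in these lanes. The filter of at least 2 lanes above the limit therefore left miR-29b out, and no fold is given between groups that both lie at or near background. With no filter on low counts edgeR returned an adjusted p of 0.698 for it. So the pair MIR29A and MIR29B1, neighbours on chromosome 7, could be followed through miR-29a only, and the pair on chromosome 1 through miR-29c only.

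Whether miR-29a and miR-29c moved by different amounts was asked with their ratio inside each lane, which needs no scaling. miR-29a was counted 3.78 and 1.95 times as often as miR-29c in NT replicates 1 and 3. In shPLEKHA7 replicates 1, 2 and 3 the ratio was 1.64, 2.08 and 1.58. NT replicate 3 fell within the shPLEKHA7 range, so the groups overlapped and NT replicate 1 alone stood apart. The mean log2 ratio was 1.44 ± 0.67 (SD, n = 2) in NT and 0.81 ± 0.22 (SD, n = 3) in shPLEKHA7 cells, a difference of -0.63 (2-sided exact permutation p = 0.2 over 10 splits, the smallest possible being 0.1). Without NT replicate 1 the difference was -0.15, and without NT replicate 3 it was -1.11. The call for miR-29a and its absence for miR-29c therefore do not show that the members differed in response. Probes can differ in capture efficiency, so the ratio's level is no measure of molecules per cell.

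**Figure D2:**
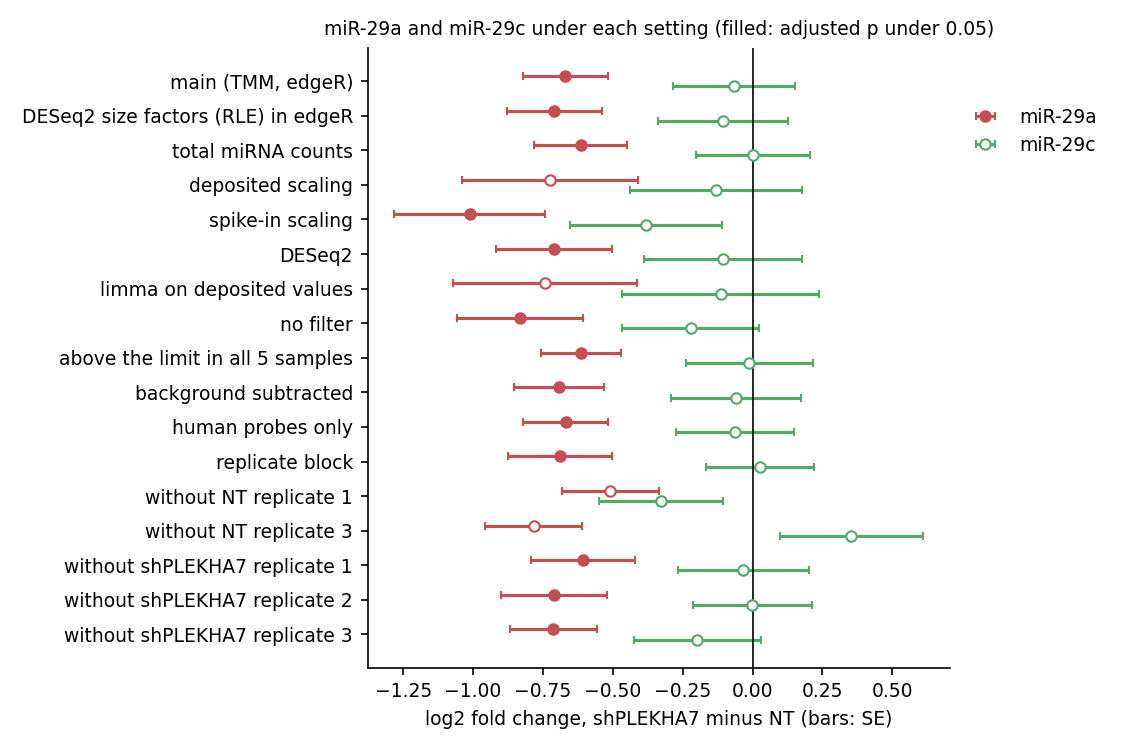
Log2 fold change (shPLEKHA7 minus NT, bars 1 SE) of miR-29a in red and miR-29c in green in the TMM fit and in each alternative, filled where the adjusted p was under 0.05. miR-29a runs from -1.01 to -0.51 and stays below 0 in each fit drawn, filled in all but 4 alternatives, and miR-29c runs from -0.38 to 0.35 and is never filled.

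miRNAs with lane patterns like those of miR-29a were sought among the other 126 probes above the limit in all 5 lanes. Likeness was the root mean square over the 5 lanes of the difference in log2 normalized count, after centring each probe on its own mean, and its median over the 126 was 0.41. The nearest was let-7i, a let-7 member of the same seed family as let-7g, at 0.12. It had 104 and 99.6 normalized counts in NT and 66.6, 74.2 and 68.0 in shPLEKHA7 lanes. edgeR did not call it (log2 -0.55, SE 0.16, adjusted p = 0.0743). Both its NT lanes lay above all shPLEKHA7 lanes, as in 22.1% of the 204 tested probes. The search favours such probes, since miR-29a has that pattern. let-7g followed at 0.13, with 549 and 499 in NT and 332, 301 and 362 in shPLEKHA7 lanes (log2 -0.65, SE 0.13, adjusted p = 0.0269). miR-23b and miR-24, both members of the miR-23-27-24 clusters, came next at 0.15 and 0.16, and miR-183, known from sensory organs, was at 0.16. miR-23b, like miR-29a, was highest in NT replicate 1 (242 against 160 in NT replicate 3), whereas miR-24 had 317 and 330.

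For miR-29c the median distance was 0.33 and the nearest probe was miR-429, a miR-200 family member, at 0.05. Its normalized counts were 36.8 and 54.5 in NT and 41.0, 37.1 and 46.9 in shPLEKHA7 lanes, so the NT lanes were again the lowest and the highest. miR-374a and miR-720, a probe now regarded as reading a tRNA fragment, followed at 0.14 and 0.14. In all 3 NT replicate 1 was the lowest lane, and none was called (adjusted p from 0.654 to 0.769). The lanes that define these distances are also those of the tests, so they describe these 5 lanes only.

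**Figure D3:**
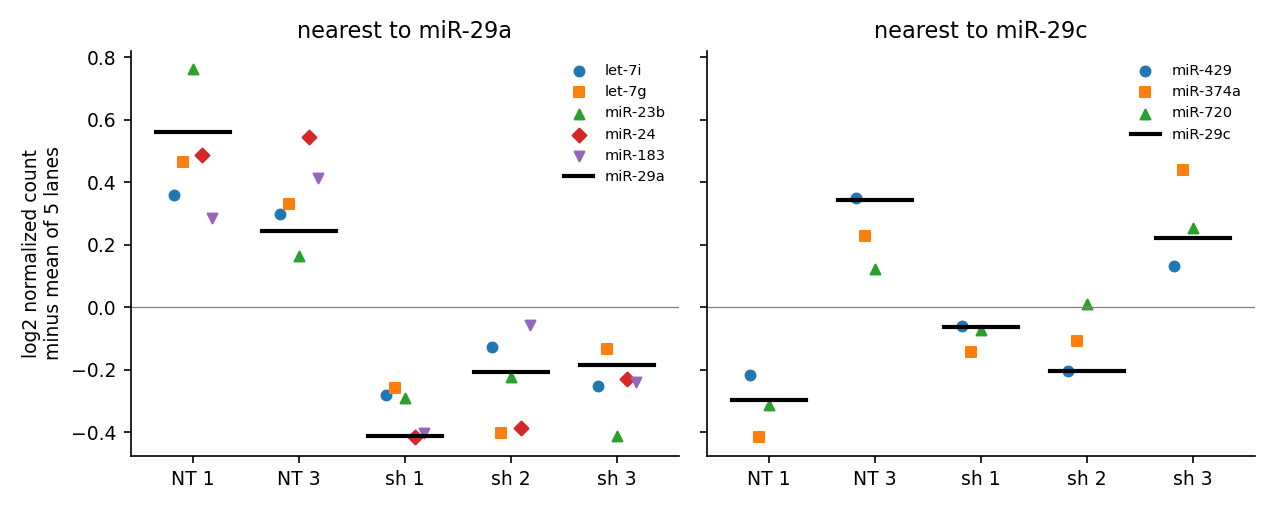
Log2 normalized count minus the probe's mean over the 5 lanes, for miR-29a (black bars, left) with its 5 nearest probes and miR-29c (black bars, right) with its 3 nearest; sh stands for shPLEKHA7. On the left both NT lanes lie above 0 and the shPLEKHA7 lanes below for every probe drawn, and on the right NT replicate 1 is low and NT replicate 3 high. The probes were picked for following these patterns.

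Other miRNAs that MYC is known to repress were followed as a list of 24, of which 20 were tested. edgeR called 4 lower (20%) and 0 higher, against 3.92% of all tested probes called lower, with 7 lower and 0 higher at an unadjusted p under 0.05, against 24 lower and 24 higher of all 204. The list's median log2 fold change was -0.18, with 13 of 20 below 0, against a median of 0.06 and 89 of 204 below 0 over all tested probes. These counts include miR-146a, whose raw NT counts of 13 and 18 lay below their limits of 13.4 and 20.6. It exceeded the limit in 2 lanes, both shPLEKHA7, so it was tested only through the group where it was higher. No fold is given for it. The 4 called lower were miR-30a, miR-23b, miR-23a and let-7g. miR-30a, which acts on the migration factor SNAI1 among others, had 179 and 189 normalized counts in NT and 84.8, 117 and 105 in shPLEKHA7 lanes (log2 -0.86, SE 0.16, adjusted p = 0.0211). miR-23a had 243 and 271 in NT and 152, 162 and 142 in shPLEKHA7 lanes (log2 -0.76, SE 0.14, adjusted p = 0.0199). In both, picked here because they were called, the NT lanes stood above all shPLEKHA7 lanes, as in 22.1% of all tested probes.

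Of the list's most abundant members, miR-30b was at log2 -0.40 (SE 0.13, adjusted p = 0.115), though called in DESeq2 (adjusted p = 0.0489), under spike-in scaling (0.0397) and with the replicate block (0.00396). In the edgeR fit miR-16, miR-26a and miR-15a were at -0.06, -0.05 and 0.00, within 1 SE of 0. These last 3 changed sign with the scaling, being at 0.00, 0.01 and 0.06 under total counts and at -0.40, -0.39 and -0.33 under spike-in scaling. Without NT replicate 1 or without NT replicate 3 edgeR called 0 members lower, with 6 at an unadjusted p under 0.05 each time. Over all tested probes these fits called 1 and 0 lower, with 20 and 12 lower at an unadjusted p under 0.05. The deposited scaling also gave 0 members, with 6 such members, and 2 probes in all. Falls of these miRNAs were known when the list was drawn up, so its count is not independent evidence.

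The miRNAs that, like miR-29, act on DNA methyltransferases or on the histone methyltransferase EZH2 had 7 of 9 members tested. edgeR called 0 of them, against 6.37% of all tested probes, with 2 lower at an unadjusted p under 0.05 (24 of all 204), and DESeq2 and limma also called 0. These 2 were miR-148b and miR-148a, both known to act on DNA methyltransferases. miR-148b had 151 and 169 normalized counts in NT and 109, 121 and 119 in shPLEKHA7 lanes (log2 -0.47, SE 0.14, adjusted p = 0.0974). miR-148a had 335 and 450 in NT and 272, 224 and 319 in shPLEKHA7 lanes (log2 -0.53, SE 0.18, adjusted p = 0.119). In both the NT lanes stood above all shPLEKHA7 lanes, as in 22.1% of all tested probes. Spike-in scaling called both, but it called 29 of all 204 probes lower and put the median of all tested probes at -0.27. miR-26a and miR-26b, which act on EZH2, were at -0.05 and 0.06, and their signs turned under total-count and spike-in scaling respectively. The list's median was -0.14. Among the tested members, miR-185 had raw NT counts of 11 and 16, below their limits of 13.4 and 20.6. It exceeded the limit in 2 lanes, both shPLEKHA7, so it too was tested only through the group where it was higher. No fold is given for it.

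Of 10 fibrosis-linked miRNAs 7 were tested, with 1 called lower and 1 higher, against 3.92% and 2.45% of all tested probes. The median was 0.24, against 0.06 over all tested probes. Members were listed for a link to fibrosis, whichever way they act, so the median has no direction in fibrosis. miR-21, which promotes fibrosis and is abundant in colorectal cancer, was the one called lower (edgeR log2 -1.13, SE 0.20, adjusted p = 0.0199). miR-19a, a miR-17-92 member that acts on matrix and connective tissue growth factor transcripts, rose (log2 1.15, SE 0.24, adjusted p = 0.0283). Its raw NT counts were low, 17 and 34 against limits of 13.4 and 20.6. It was not called in limma (adjusted p = 0.0634) or in edgeR with no filter (adjusted p = 0.0655). Log2 fold changes were 0.92 without NT replicate 1 and 1.53 without NT replicate 3. The miR-19a relatives miR-19b and miR-18a were at 0.37 and 0.27, with miR-18a turning negative under spike-in scaling. miR-192 was at -0.01, turning positive under total counts. The TMM fit called none of these 3, and the fit with the replicate block called miR-19b (adjusted p = 0.0461). Without NT replicate 3 edgeR called 0 of the list, with 3 at an unadjusted p under 0.05, and also 0 probes of any kind, with 22 higher and 12 lower at that threshold.

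**Figure D4:**
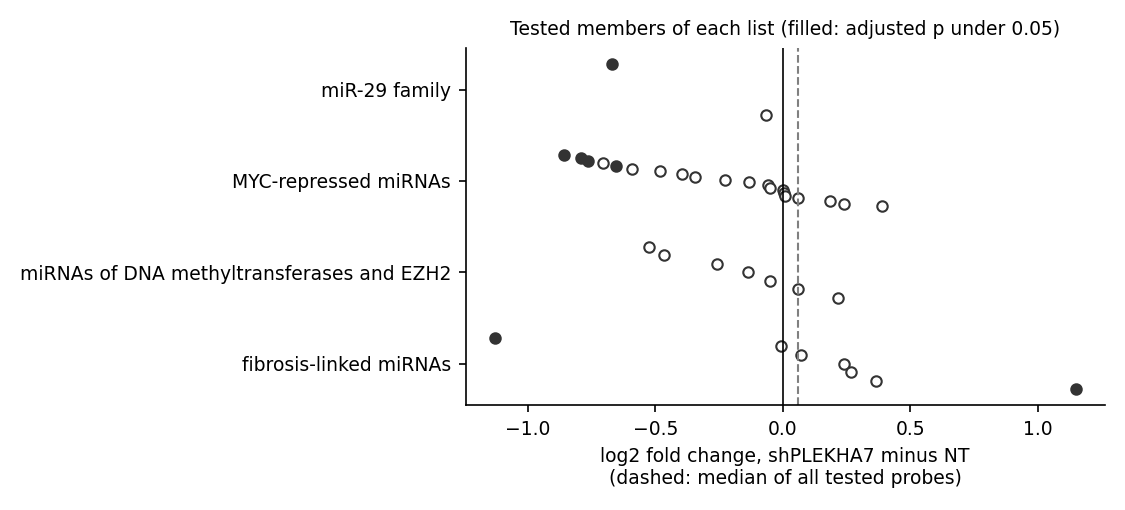
Log2 fold change (shPLEKHA7 minus NT) of each tested member of the miR-29 family and of the 3 lists, filled where the edgeR adjusted p was under 0.05, with a dashed line at the median of all tested probes, 0.06. The MYC-repressed list has 4 filled points, all below 0, the fibrosis-linked list has 1 on each side, and the list of DNA methyltransferases and EZH2 has none.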

How the data were processed

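Per the file headers, the authors deposited a table of raw counts per probe and lane (654 human and 80 viral miRNA probes, 8 negative controls, 6 spike-ins, 5 mRNAs) and a table of normalized signal values. The deposited signal of human miRNAs equalled the raw count times 1 factor per lane within 0.02 in 100% of cases, and those factors equalised the housekeeping mRNAs. The software was not given in the sources used here.

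Raw counts of miRNA probes were tested with edgeR 4.0.16 (R 4.3.3): quasi-likelihood test, TMM scaling, group as the only term, Benjamini-Hochberg over 204 probes above the lane's limit of detection in at least 2 samples, threshold 0.05. SEs were derived from the log2 fold change and its F statistic (size divided by the root of F). The script was tested on simulated data. DESeq2 1.42.0, limma 3.58.1 on log2 (deposited value + 1), other scalings, filters, background subtraction with a floor of 1, a replicate block and leaving out each sample were alternatives. The labels do not say whether same-numbered samples share an infection set, so they were not paired. The edgeR p-values measure the spread between these samples, with each probe's estimate drawn toward those of the other probes. With n = 2 in NT, the spread between infections is hardly estimated there.

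The members and lists were chosen with earlier results of these data known. Named miRNAs are the family, called members and the 4 most abundant tested members of the 3 functional lists, and the probes nearest in pattern (5 to miR-29a, 3 to miR-29c). Cell type markers are given by list, with the called one, miR-215, named. miR-146a and miR-185 are named only for how they passed the filter.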

Additional observations from a re-analysis of the deposited data

How the results depend on the processing

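miR-29a stayed below 0 in all 16 alternatives and was called in 12. It missed the threshold at log2 -0.72 under the deposited scaling, at -0.74 in limma on the deposited values, and without either NT sample, and leaving out 1 sample at a time gave -0.78 to -0.51. miR-29c was called in none and changed sign to 0.00086 under total miRNA counts and 0.027 with the replicate block, and leaving out 1 sample at a time gave -0.33 to 0.35. The cause was not tested in any of these cases. The difference in the miR-29a to miR-29c ratio was between -1.11 and -0.15 when 1 sample was left out and was -0.76 with the replicate block. The block was only an alternative, since the labels do not say whether same-numbered samples share an infection set. Deviations from the group means correlated at 0.018 between the samples numbered 1 and at 0.14 between those numbered 3. With n = 2 in NT the deviations of the NT samples mirror each other. The correlations are therefore not independent and cannot decide whether the samples are paired.

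Probes called higher, 5 with all samples, were 11 under total counts, 2 in DESeq2, 1 with no filter, 2 among probes above the limit in all samples, 10 with the replicate block, and 0 to 9 with a sample left out. Probes called lower, 8 with all samples, were 2 under the deposited scaling, 29 under spike-in scaling, 2 in limma, and 0 to 11 with a sample left out. MYC-repressed miRNAs called lower were 0, 8 and 0 in these 3 settings and 0 to 5 with a sample left out. Spike-in scaling called 2 miRNAs of DNA methyltransferases and EZH2. Fibrosis-linked miRNAs called, 2 with all samples, were 1 in limma and 1 with no filter, and 0 to 2 with a sample left out.

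Several named miRNAs that no fit called changed sign. miR-15a was at -0.039 with DESeq2 size factors, -0.055 under the deposited scaling, -0.33 under spike-in scaling, -0.039 in DESeq2, -0.084 in limma and -0.15 with no filter, and -0.11 to 0.10 with a sample left out. Under total counts miR-16 was at 0.00072, miR-26a at 0.011 and miR-192 at 0.048. Among probes above the limit in all samples miR-26a was at 0.0051 and miR-192 at 0.047, and with the replicate block miR-192 was at 0.040. Under spike-in scaling miR-18a was at -0.070, miR-26b at -0.27, miR-374a at -0.17 and miR-720 at -0.18. With no filter miR-26b was at -0.099, miR-374a at -0.0043 and miR-720 at -0.0085, and limma put miR-26b at -0.079. Leaving out 1 sample at a time, miR-16 ran from -0.18 to 0.11, miR-26a from -0.13 to 0.078, miR-26b from -0.11 to 0.27, miR-192 from -0.23 to 0.11, miR-374a from -0.11 to 0.57, miR-429 from -0.37 to 0.24 and miR-720 from -0.050 to 0.42. Spike-in scaling moved the median of all tested probes from 0.06 to -0.27, and total counts to 0.12. miR-29b lay above the limit of detection in 1 lane, so its level could not be compared.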
